A study of Mus musculus and Sus scrofa with 12 samples.

Results

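In forelimbs of mouse embryos, 44353 regions carried H3K4me1 without H3K27ac or H3K4me3 and lay away from any annotated transcription start site (TSS). They were selected on measured values: from the 69962 peaks of the mouse H3K4me1 list, those were kept that shared no base with a peak of the mouse H3K27ac or H3K4me3 list and whose edges lay over 1 kb from the TSS of every RefSeq transcript on GRCm38. They made up 63.4% of the H3K4me1 peaks, and the 6 lists of the series held 258842 peaks in all. The study mapped the 3 histone modifications by ChIPmentation, an immunoprecipitation of chromatin in which a transposase adds the sequencing adapters while the chromatin is bound to the antibody. The mouse embryos were wild-type, came from natural mating and were taken at E11.5, with 2 samples for each of H3K4me1 (ab8895), H3K27ac (ab4729) and H3K4me3 (ab8580). Wild-type pig embryos of natural mating, taken at day 23 of gestation, gave forelimbs for the same antibodies, also with 2 labelled samples each. The design text gives a single biological replicate for pig H3K4me1. Biological replicates were forelimbs of littermates. Whole limbs were used, so a mark present in few cells and a weak mark in many cannot be told apart, and 2 marks at a region need not lie in the same cells. Each list is a consensus of replicates with positions only, so no spread between embryos could be computed. All intervals below are 95% intervals of counting error (Wilson for a share, Newcombe for a difference of shares), and neighbouring regions are not independent.

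H3K4me1 is placed on nucleosomes of enhancers by the methyltransferases MLL3 and MLL4, often before the enhancer is used. Acetylation of H3K27 by p300 and CBP is added at enhancers in use, and H3K4me3 at promoters. Regions with H3K4me1 alone are therefore often called primed, but the same pattern is left at enhancers that were used earlier, and is shared by poised enhancers, which carry H3K27me3. With these 3 marks at 1 stage the name could not be checked, and the regions are called H3K4me1-only here.

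The sequences below show what such regions look like near genes of limb patterning. Each is the stretch of 150 bases that was most alike in pig, within the best pig match outside exons, for 9 genes of the limb lists whose matches scored among the highest of the 32 genes searched. Capitals mark bases that were identical in the aligned pig sequence. The sequences are from the RefSeq GRCm38.p6 genome, plus strand, 5′ to 3′.
Meis1: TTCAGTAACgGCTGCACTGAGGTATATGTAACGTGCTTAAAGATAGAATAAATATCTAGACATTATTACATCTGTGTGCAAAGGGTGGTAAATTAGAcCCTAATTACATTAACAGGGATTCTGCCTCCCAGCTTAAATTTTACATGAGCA
Sox6: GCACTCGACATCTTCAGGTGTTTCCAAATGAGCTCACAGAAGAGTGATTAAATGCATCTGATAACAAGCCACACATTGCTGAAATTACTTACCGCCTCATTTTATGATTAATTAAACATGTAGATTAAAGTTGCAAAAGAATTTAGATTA
Gli3: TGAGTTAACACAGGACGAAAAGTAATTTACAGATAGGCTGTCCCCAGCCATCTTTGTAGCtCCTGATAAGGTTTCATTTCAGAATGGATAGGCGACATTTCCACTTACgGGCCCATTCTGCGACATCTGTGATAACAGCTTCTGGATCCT
Fzd1: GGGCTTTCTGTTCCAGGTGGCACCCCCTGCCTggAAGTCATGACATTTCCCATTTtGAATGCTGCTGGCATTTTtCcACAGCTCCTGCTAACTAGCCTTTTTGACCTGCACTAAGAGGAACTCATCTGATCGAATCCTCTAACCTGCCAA
Gdf6: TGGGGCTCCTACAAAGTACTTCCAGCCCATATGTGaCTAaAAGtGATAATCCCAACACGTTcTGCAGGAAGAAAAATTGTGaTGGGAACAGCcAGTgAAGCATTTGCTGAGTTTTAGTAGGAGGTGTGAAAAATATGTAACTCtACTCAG
Tbx18: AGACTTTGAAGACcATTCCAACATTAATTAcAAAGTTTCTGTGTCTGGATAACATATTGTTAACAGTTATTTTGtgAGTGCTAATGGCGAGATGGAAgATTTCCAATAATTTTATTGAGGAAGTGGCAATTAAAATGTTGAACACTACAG
Sall1: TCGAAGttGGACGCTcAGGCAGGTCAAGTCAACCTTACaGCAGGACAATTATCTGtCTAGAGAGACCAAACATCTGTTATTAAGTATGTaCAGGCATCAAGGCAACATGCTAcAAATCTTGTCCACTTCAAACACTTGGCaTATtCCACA
Bmpr1b: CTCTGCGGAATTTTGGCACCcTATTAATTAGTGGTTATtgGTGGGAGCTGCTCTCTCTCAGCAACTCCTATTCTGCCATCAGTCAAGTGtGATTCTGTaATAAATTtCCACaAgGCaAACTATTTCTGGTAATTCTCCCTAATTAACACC
Wnt5a: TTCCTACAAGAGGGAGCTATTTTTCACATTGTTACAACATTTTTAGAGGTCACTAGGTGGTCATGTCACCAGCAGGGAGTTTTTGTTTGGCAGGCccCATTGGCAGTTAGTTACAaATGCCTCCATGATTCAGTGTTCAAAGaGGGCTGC

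The Sox6 sequence, chr7:115919828-115919977 in an intron of Sox6, was identical to pig in 150 of 150 bases, and no peak was called at its pig match. The Meis1 sequence, chr11:18930135-18930284 in an intron 85.8 kb downstream of the TSS, shared 148 bases with pig, where the match carried H3K4me1 alone. The Gli3 sequence, chr13:15486585-15486734, also shared 148 bases and lay in an intron 22.6 kb from the TSS. The nearest gene was not always the host: the Fzd1 sequence at chr5:4877283-4877432 lay in an intron of Cdk14, 119 kb from Fzd1, and the Wnt5a sequence at chr14:28252592-28252741 in an intron of Erc2, 252 kb from Wnt5a. The other sequences were intergenic, those of Tbx18 at chr9:87774548-87774697, Sall1 at chr8:89153338-89153487, Bmpr1b at chr3:142238438-142238587 and Gdf6 at chr4:10295593-10295742. The last lay 451 kb downstream of Gdf6, a growth factor of joint formation. The pig match carried H3K4me1 alone for 6 of the 9 sequences and no peak for those of Sox6, Gdf6 and Bmpr1b.

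The remaining mouse H3K4me1 peaks lay at a TSS (17237 peaks, 24.6%) or were distal and overlapped another mark. Distal peaks that overlapped H3K4me3, with or without H3K27ac, numbered 3576 (5.11% of all H3K4me1 peaks). Those with H3K27ac but no H3K4me3 numbered 4792 (6.85%) and are the distal H3K4me1 peaks with H3K27ac compared throughout. The distal H3K27ac peaks without H3K4me1 used below also leave out any that overlapped H3K4me3. The H3K4me1-only regions had a median width of 3378 bp (quartiles 2372 and 4291, range 200 to 12582) and covered 149 Mb, or 5.46% of the assembled chromosomes. Distal H3K4me1 peaks with H3K27ac had a median width of 3605 bp. At the thresholds of the selection, 546 regions lay up to 1500 bp from a TSS and were kept, while 636 peaks without the other marks lay from 500 to 1000 bp from one and were left out. Another 138 kept regions had an H3K27ac or H3K4me3 peak within 500 bp, and 490 distal peaks with 500 bp of overlap or less were left out. Distance to H3K27ac is tied to the selection and is given as a description. The nearest H3K27ac peak was a median of 35.0 kb away (quartiles 13.4 and 82.7), 387 regions (0.873%) had one within 1 kb and 19.6% within 10 kb.

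The regions were divided about evenly between introns and intergenic DNA. By midpoint, 22832 (51.5%, 51.0 to 51.9) were intronic, 19713 (44.4%, 44.0 to 44.9) intergenic, 1447 (3.26%) in untranslated or non-coding exons and 361 (0.814%) in coding exons. Of the genome's bases over 1 kb from any TSS, 41.0% were intronic and 55.3% intergenic. The split was close to that of the distal H3K4me1 peaks with H3K27ac, of which 52.1% were intronic, and the difference of -0.651 points had an interval of -2.14 to 0.839. Against the 5367 distal H3K27ac peaks without H3K4me1, the intergenic share was 3.49 points higher (2.09 to 4.88) and the coding-exon share lower, with a difference of -1.52 points (-1.96 to -1.13). Counting introns of coding genes alone, the intronic share was 44.1%. Of the intronic regions, 85.7% lay in a coding gene, and for 80.8% of these the host gene also held the nearest coding TSS.

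Long genes were the leading hosts. Introns of Lrmda held 61 regions, those of Auts2 and Macrod2 60 each, and those of Rbms3 58, in genes of 1037, 1106, 1998 and 1057 kb. The regions lay farther from coding genes than the distal peaks with H3K27ac. The median distance to a coding TSS was 52.7 kb (quartiles 19.7 and 139), against 40.1 kb for distal H3K4me1 with H3K27ac and 37.1 kb for distal H3K27ac without H3K4me1. Between 100 and 250 kb lay 20.7% of the regions (20.3 to 21.0) and 17.2% of the peaks with H3K27ac (16.1 to 18.2), and between 5 and 20 kb 21.9% and 26.8%. Since the selection itself used TSS distance and H3K27ac, these values are a description.

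**Figure D1:**
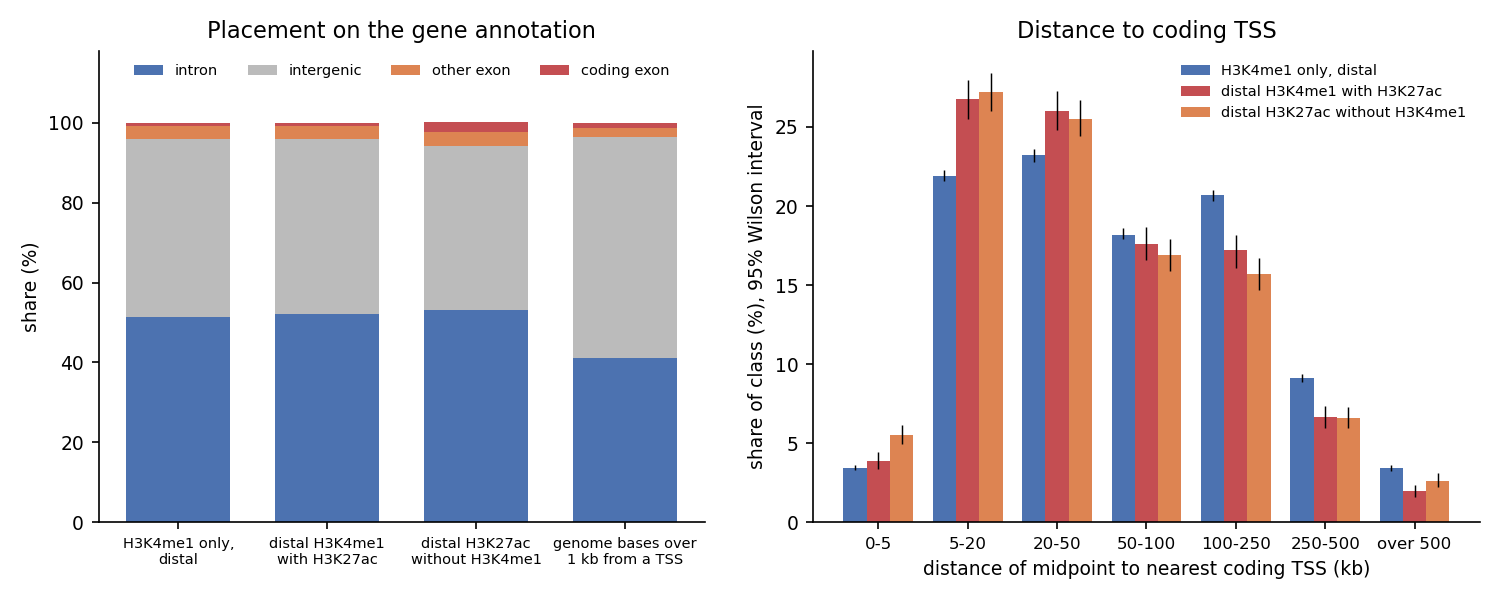
Left, share of midpoints (%) in introns, intergenic DNA, other exons and coding exons for the H3K4me1-only regions, 2 comparison classes and the genome's bases over 1 kb from any TSS; right, share of each class (%) by distance to the nearest coding TSS (kb), with 95% Wilson intervals as bars. The intronic share was 51.5% for the regions and 41.0% for the genome, and the H3K4me1-only class was the highest of the 3 in the bins from 100 to 250 kb (20.7%) and 250 to 500 kb (9.12%).

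Many regions stood close together. The median gap to the nearest other region was 9.23 kb, and 59.1% (58.7 to 59.6) had another within 12500 bp. Joined at gaps of that size or less, 18133 regions stood alone (40.9%) and 790 clusters held 5 or more, with 4770 regions in all (10.8%). That share depended on the joining gap: it was 0.751% at 5 kb and 35.5% at 25 kb. With the wider 50% of the regions only it was 1.49%. Of the 790 clusters, 29 held 10 or more, and 657 (83.2%, 80.4 to 85.6) had no H3K27ac peak between their first and last region. The regions were selected without H3K27ac and joined across short gaps, so that share is tied to the selection and is a description.

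The cluster with the most members lay upstream of Tbx3, a T-box repressor that patterns the limb's anterior and posterior margins. It held 16 regions over 144 kb at chr5:119377407-119520961, 151 to 291 kb from the nearest coding TSS, with no H3K27ac or H3K4me3 peak in its span. Clusters of 14 lay at Ror1, a Wnt receptor gene (chr4:100136098-100255633), and near Ephb2 and Lactbl1 (chr4:136701215-136792806), each with 1 H3K27ac peak in its span. Clusters of 13 lay near Bcl11a, a zinc finger repressor gene (chr11:24233493-24351192), near Gdnf, a neurotrophic factor gene (chr15:7622500-7749258), and near Galnt7 (chr8:57740693-57854265). The one near Bcl11a had 2 H3K27ac peaks in its span and those near Gdnf and Galnt7 none.

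**Figure D2:**
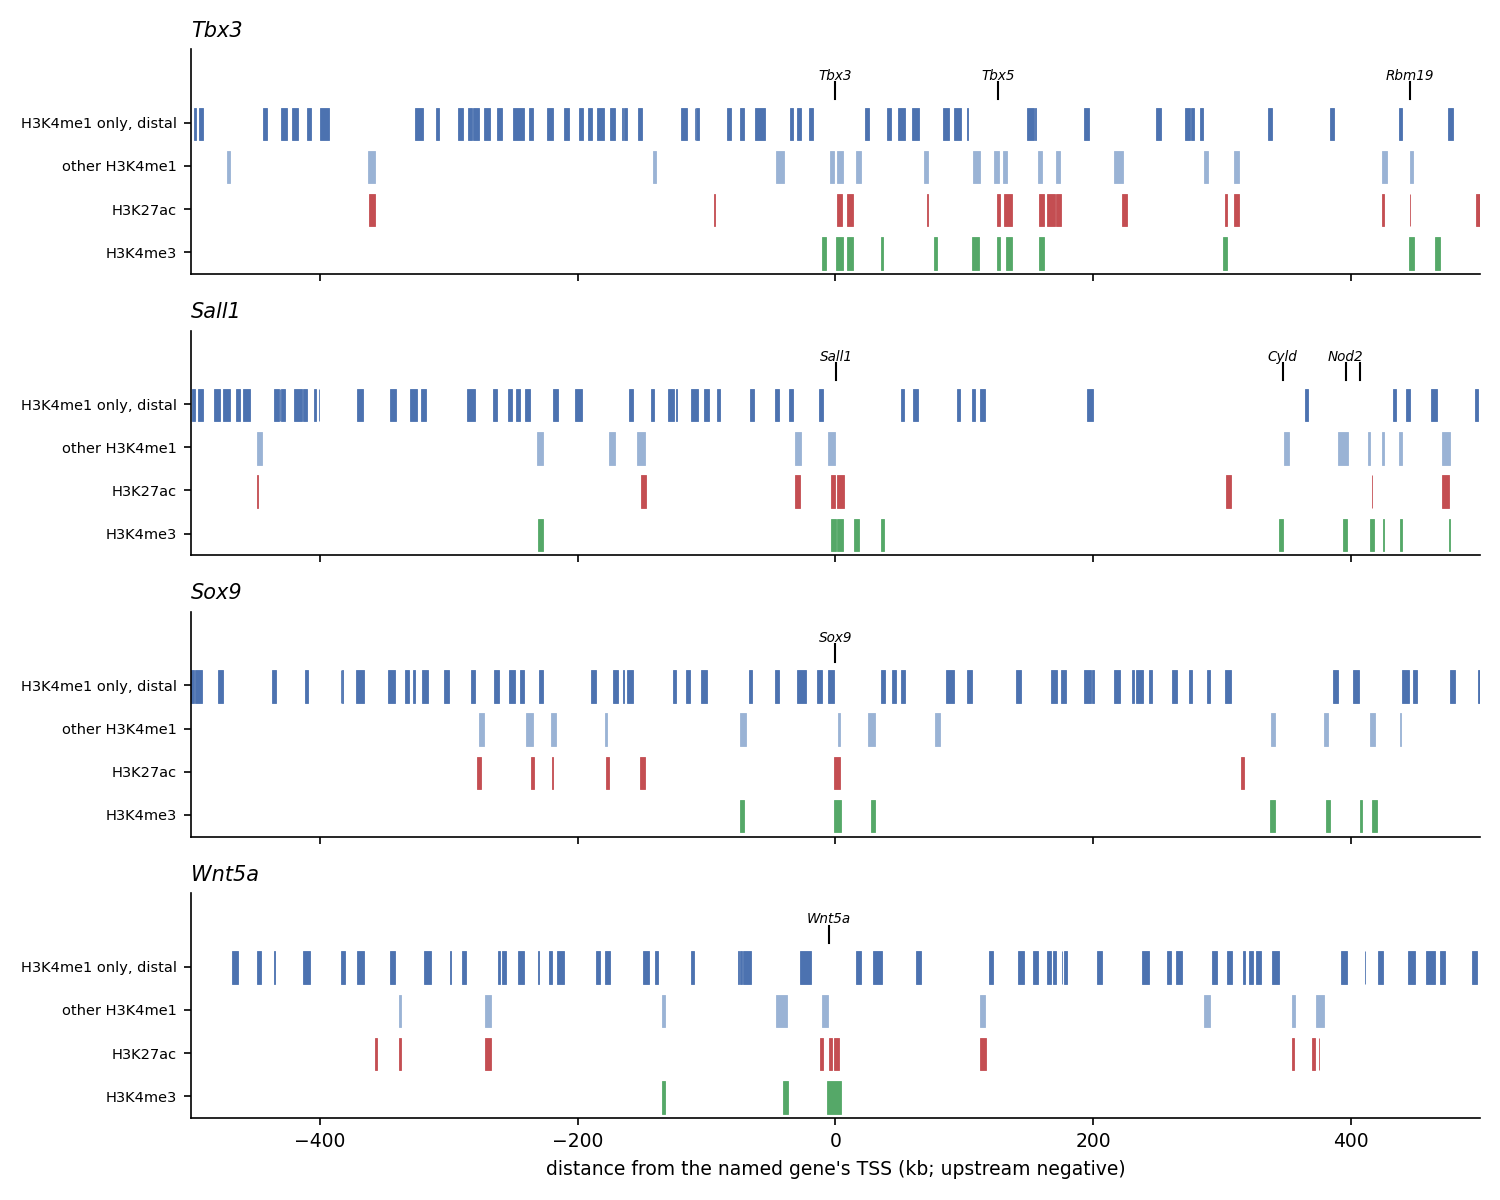
Peaks within 500 kb of the TSS of Tbx3, Sall1, Sox9 and Wnt5a, by distance from that TSS (kb, upstream negative), with 1 row each for H3K4me1-only regions, other H3K4me1 peaks, H3K27ac and H3K4me3, and ticks for coding TSSs. H3K4me1-only regions numbered 52, 46, 54 and 52 in these windows, against 16, 8, 7 and 10 H3K27ac peaks.

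A region was taken with the coding gene whose TSS was nearest to its midpoint, up to 500 kb away, and 42830 regions (96.6%) had such a gene. Of 21774 coding genes, 9584 (44.0%, 43.4 to 44.7) had 1 region or more, 1184 (5.44%) had 10 or more and 286 had 20 or more. The 1184 genes held 46.4% of the assigned regions. The share of the genome nearest to them was not summed, so the 46.4% is a description. Of the 9584 genes, 6951 (72.5%, 71.6 to 73.4) had no distal H3K4me1 peak with H3K27ac and without H3K4me3 assigned to them. Such peaks were few: 4698 were assigned over all 21774 coding genes, with a median of 0 per gene. The share without one was not computed over all coding genes, so the 72.5% is a description. Numbers depended on a gene's territory, which runs from the last coding TSS before it to the next one after it. The share of genes with a region was 10.9% for territories under 50 kb, 57.6% from 100 to 200 kb and 79.3% from 500 to 1000 kb. The share with 10 or more was 0% below 200 kb, 38.3% from 500 to 1000 kb and 42.3% at 1000 kb or more.

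The 10 genes with the most regions were Zfhx3 (66), Lrmda (64), Pde4d (60), Tenm3 (60), Zfp608 (58), Ntm (53), Adgrl2 (52), Magi1 (52), Sox11 (50) and Sox9 (49). They include transcription factors (Zfhx3, Sox11, Sox9), cell adhesion proteins (Tenm3, Ntm, Adgrl2), a phosphodiesterase that breaks down cyclic AMP (Pde4d) and a scaffold of cell junctions (Magi1). Zfhx3 had 66 assigned H3K4me1-only regions beside 8 distal H3K4me1 peaks with H3K27ac, and its introns held 40 H3K4me1-only regions. Here and below, the count in a gene's introns includes regions nearest to another gene. It need not be a part of the gene's assigned regions. Sox11 and Sox9, which are short genes in long gene-poor stretches, had none in their own introns and 8 and 4 peaks with H3K27ac. Lrmda alone among the 10 had H3K4me3 without H3K27ac at its TSS, and the other 9 had both marks there.

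Per 100 kb of territory, in genes with at least 100 kb, Gse1 led with 6.07 regions (25 in 412 kb), followed by Myo10, an unconventional myosin of filopodia, with 5.82 (25 in 430 kb). Gm1113, Sap30l, Slc37a1 and Dagla followed with 5.64, 5.63, 5.51 and 5.40, and then Dlc1 (5.14), Ablim1 (5.11), Ldlrad4 (5.10) and Rcan1, an inhibitor of calcineurin (5.05). The rates of Gm1113, Sap30l, Slc37a1, Dagla and Rcan1 rested on 6, 6, 6, 8 and 7 regions, in territories of 106 to 148 kb. The median of all coding genes was 0.680 per 100 kb at territories of 100 to 200 kb and 0.977 at 200 to 500 kb. Introns of Gse1 held 24 regions, beside 25 assigned to it. Those of Ldlrad4, an inhibitor of TGF-beta signalling, held 22, beside 24 assigned.

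Genes of limb mesenchyme, a list of 28 transcription factors and other genes of the early bud, had a median well above the 0 of all coding genes, with 13 and 10 regions in the middle 2 genes. All 28 had at least 1 (background 44.0%), and 15 had 10 or more (background 5.44%). Their median territory was 598 kb. Among all genes with territories of 500 to 1000 kb, 79.3% had a region, 38.3% had 10 or more and the median was 1.00 per 100 kb, against 2.18 per 100 kb in the list. In all, 405 H3K4me1-only regions and 28 distal H3K4me1 peaks with H3K27ac were assigned to the list. Over all coding genes, 42830 and 4698 were assigned, so the first class was the larger one in general.

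The leading gene of the list was Sall1, a zinc finger factor of digit formation, with 40 regions in 1625 kb. Meis1, a homeodomain factor of the proximal limb, had 39 in 1971 kb and 1 distal H3K4me1 peak with H3K27ac. Tbx3 had 38 in 1236 kb, or 3.08 per 100 kb. Tbx18, another T-box gene of limb mesenchyme, had 30. At the other end, Prrx1, a homeobox gene that defines limb mesenchyme, had 5 regions in 318 kb, and Msx1 had 3. The forelimb selector Tbx5 had 10 in 445 kb, and 3 distal H3K4me1 peaks with H3K27ac.

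All 9 posterior Hox genes listed, which take part in patterning the limb, had 0 regions, Hoxa9, Hoxa10, Hoxa11 and Hoxa13 among them. Their median territory was 15.4 kb, a size at which few genes of any kind had one (10.9% under 50 kb). A region beyond the end of a Hox cluster was assigned to the nearest coding gene, such as Evx1 for a region over the tested enhancer mm48 at 130 kb. Of 6 genes that mark the hindlimb, Isl1 had 13 regions, Pitx1 7 and Tbx4 7, while Hoxc9, Hoxc10 and Hoxc11 had 0.

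**Figure D3:**
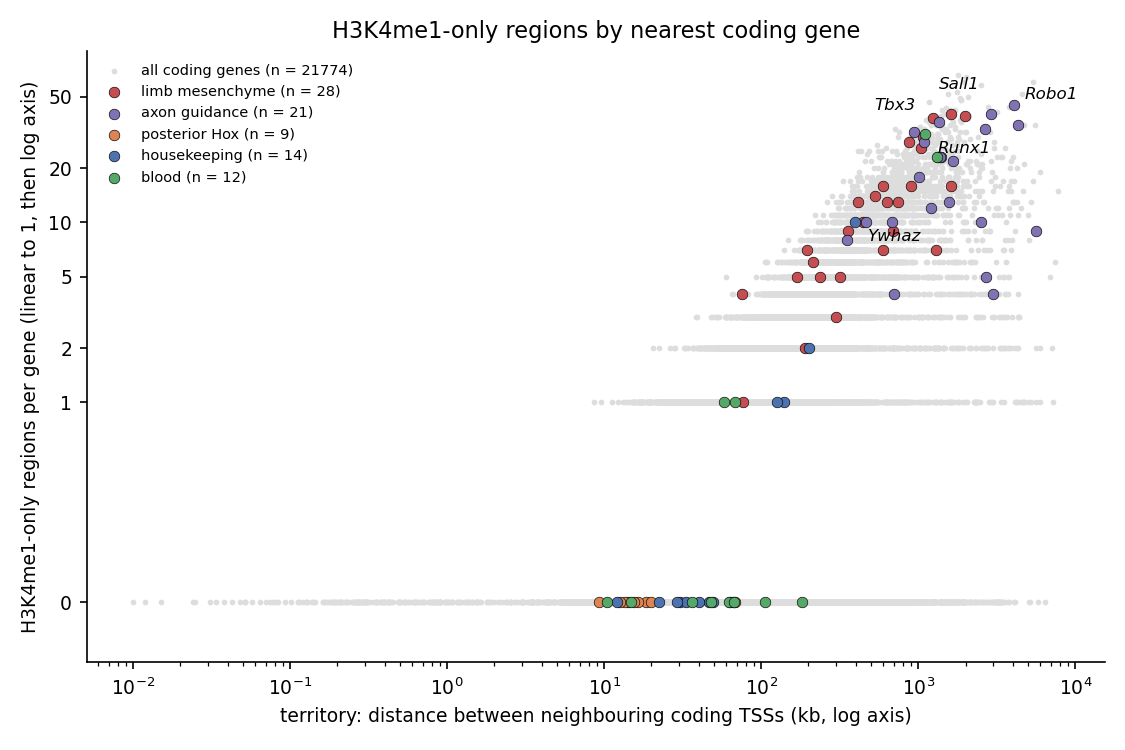
H3K4me1-only regions per gene against the gene's territory (kb, log axis), for all 21774 coding genes in grey and 5 gene lists in colour. Limb mesenchyme and axon guidance genes lie toward the upper right, with up to 40 and 45 regions, and the 9 posterior Hox genes lie at 0 with a median territory of 15.4 kb.

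The signalling pathways of the limb bud were read by role. Their lists had median territories of 247 to 416 kb, and among all coding genes with territories of 200 to 500 kb 76.5% had a region and 7.25% had 10 or more. Most list genes with 10 or more had territories over 500 kb, such as Fgfr2 (928 kb), Gli3 (1374 kb) and Bmp2 (1608 kb). The 7.25% is therefore no matched background for them. Among all genes 38.3% had 10 or more at 500 to 1000 kb, and 42.3% at 1000 kb or more. In the hedgehog pathway 12 of 14 genes (85.7%) had a region and 5 (35.7%) had 10 or more, in a median territory of 303 kb. The ligand gene Shh had 1 and the receptor gene Ptch1 8. Of the transcription factors that carry the signal, Gli3 had 29, Gli2 16 and Gli1 0, and Smo also had 0. Introns of Gli3 held 10 regions. The co-receptor Gas1 had 17 H3K4me1-only regions beside 12 distal H3K4me1 peaks with H3K27ac, the largest number of the latter among the genes named by rule in this pathway. Hhip, a decoy that binds the ligand, had 17 and 1.

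In the FGF pathway 13 of 14 genes (92.9%) had a region and 5 had 10 or more, with a median of 5 and a median territory of 247 kb. Among ligands, Fgf9 had 20, Fgf10, the mesenchymal signal to the ectodermal ridge, had 17 and Fgf8 of the ridge 3, while Fgf17 had 0. The receptor Fgfr2 had 27, and the feedback inhibitor Spry2 14. Fgf10 and Spry2 had no distal H3K4me1 peak with H3K27ac and without H3K4me3, and both had H3K27ac and H3K4me3 at the TSS. Distal peaks with all 3 marks were not counted per gene.

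In the BMP pathway 13 of 14 genes (92.9%) had a region and 6 had 10 or more, with a median of 6.5 and a median territory of 393 kb. The ligands Bmp2 and Bmp4 had 29 and 23. The receptor Bmpr1b, which acts in digit cartilage, had 29, and the target gene Id2 had 21. Introns of Bmpr1b held 17 regions. The antagonist Grem1 had 0. In the WNT list 15 of 16 genes (93.8%) had a region and 10 had 10 or more, with a median of 10.5 and a median territory of 416 kb. Wnt5a, a ligand of limb outgrowth, had 30, the receptor Fzd1 28, the inhibitors Dkk1 and Sfrp2 18 each, and Wnt3a 0.

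Of 18 cartilage genes 15 (83.3%) had a region, with a median of 3 and a median territory of 203 kb (76.5% of all genes with 200 to 500 kb). The transcription factors of chondrogenesis had the most: Sox9 49, Sox5 48 and Sox6 36. Introns of Sox5 and Sox6 held 35 and 20 regions. Of the matrix genes, Matn1 had 14, and Col10a1, Col11a2 and Col9a2 had 0. In the bone list 12 of 16 (75%) had a region, in a median territory of 145 kb (57.6% of all genes with 100 to 200 kb). Runx2, the master factor of osteoblasts, had 21, Runx3 5 and Dlx6 4, and Dlx5, Dmp1, Mmp13 and Sp7 had 0. Introns of Runx2 held 19 regions. In the tendon and joint list 12 of 14 (85.7%) had a region, in a median territory of 221 kb. Erg, an ETS factor of joint cartilage and vessels, had 18 in 409 kb, or 4.40 per 100 kb, Gdf6 14, Mkx 8 and Dcn 7, and Egr1 and Kera had 0.

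The 21 genes of axon guidance, whose ligands and receptors also act outside the nervous system, had the highest median of the 20 lists, 18, and 16 had 10 or more. Robo1 had 45, Robo2 40, Nrp2 36 and Efna5 35, and introns of Robo2 held 40 regions. The list's median territory was 1386 kb. Among all genes with 1000 kb or more, 42.3% had 10 or more and the median was 0.340 per 100 kb, against 1.32 in the list.

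Lists for other cell types that a limb holds had medians from 0 (blood) to 4.5 regions (neural crest and glia). Of 12 blood genes, 4 (33.3%) had a region, near the 34.2% of all genes with territories of 50 to 100 kb, and the list's median was 64.7 kb. These were Runx1 with 31, Ptprc with 23, Gata1 with 1 and Gfi1b with 1. Runx1, a factor of blood stem cells, had H3K27ac and H3K4me3 at its TSS, and Ptprc, the common leukocyte antigen, had H3K4me3 there without H3K27ac. Among endothelial genes 12 of 13 (92.3%) had a region, in a median territory of 279 kb (76.5% of all genes with 200 to 500 kb), led by Erg (18), Cdh5 (17), Kdr (9) and Emcn (5), and Sox18 had 0. Of the muscle genes, Eya1 had 19, Pax3 16, Met 7 and Lbx1 6, and 7 of 16 had none. The muscle, ectoderm and neural crest and glia lists had median territories of 164 to 184 kb, where 57.6% of all genes had a region, against 56.2%, 66.7% and 87.5% in the lists. Of 12 ectoderm genes 8 had a region, Grhl2 13, Trp63 11, Sp8 9 and Tfap2a 9 among them, and the keratin genes Krt5, Krt8, Krt14 and Krt18 had 0. Of 8 genes of neural crest and glia 7 had one, Sox2 17, Mitf 14, Foxd3 7 and Mbp 6 among them.

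Genes of tissues outside the limb are given beside the same background. Of 14 neuronal genes 8 (57.1%) had a region, against 44.0% of all coding genes and 57.6% of those with territories of 100 to 200 kb, led by Rbfox3 (12), Grin2b (9), Elavl4 (7) and Neurod1 (3), with a median of 1.00. The neuronal and liver lists had median territories of 167 and 127 kb. Of 10 liver genes 5 (50%) had one, Apob 9, Apoa1 5, Ttr 2 and Alb 1 at the top, and Afp, Foxa3, Hnf4a and Serpina1a were among those at 0. Of 9 heart genes 6 (66.7%) had one, in a median territory of 59.8 kb (34.2% of all genes with 50 to 100 kb), led by Ryr2 (9), Nkx2-5 (3), Actn2 (2) and Myl7 (2), and Myh6, Nppb and Tnni3 had 0. None of the liver or heart genes had 10 or more (background 5.44%). Of 14 housekeeping genes 4 (28.6%) had a region, Ywhaz 10, Hprt 2, Eef1a1 1 and Psmb2 1, in a median territory of 47.8 kb. Among all genes with territories under 50 kb, 10.9% had a region. The 4 housekeeping genes with one had territories of 126 kb (Psmb2) to 396 kb (Ywhaz).

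Most regions were nearest to a gene with both promoter marks. Of the 42830 assigned regions, 24265 (56.7%, 56.2 to 57.1) were nearest to a gene with both H3K4me3 and H3K27ac within 1 kb of a TSS, 12062 (28.2%) to one with H3K4me3 alone, 463 (1.08%) to one with H3K27ac alone and 6040 (14.1%, 13.8 to 14.4) to one with neither. Distal H3K4me1 peaks with H3K27ac were nearest to a gene with both marks in 60.8%, and the difference was -4.12 points (-5.58 to -2.64). Set against the stretch of genome nearest to each kind of gene, there were 22.9 regions per Mb for genes with both marks, 18.6 with H3K4me3 alone, 21.4 with H3K27ac alone and 9.08 with neither. Peaks with H3K27ac had 2.69, 1.82, 4.12 and 0.861 per Mb in the same order. Genes with H3K27ac alone were few, 250 of 21774. Genes with neither mark were 33.8% of all and held 27.8% of that genome.

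Among genes with neither mark at the TSS, Gm11677 had 42 regions, Gm52008 35, Tnp1, a nuclear protein of sperm, 33, Gm44812 32 and Lrtm1 31. Each had 3 distal H3K4me1 peaks with H3K27ac at most. Their territories were 1088 to 1847 kb, and Gm11677 lies in the gene desert beside Sox9, so the nearest gene need not be the gene that a region acts on.

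A set of 620 enhancers in the RefSeq annotation, each shown by a reporter gene in transgenic mouse embryos, allowed a readout that the selection did not use. Of 174 with limb activity, 64 (36.8%, 30 to 44.2) overlapped an H3K4me1-only region and no H3K27ac or H3K4me3 peak, 66 (37.9%) overlapped H3K27ac and 18 (10.3%) no mark. Of 446 active in other tissues only, 147 (33.0%, 28.8 to 37.5) overlapped an H3K4me1-only region, 90 (20.2%) H3K27ac and 137 (30.7%) no mark. The share in H3K4me1-only regions was 3.82 points higher for limb enhancers, with an interval of -4.33 to 12.3 that includes 0, while the share with H3K27ac was 17.8 points higher (9.81 to 25.9). Only 218 of the 44353 regions overlapped a tested enhancer, and the tested set was chosen by others, in part for conservation or marks. The set was looked up after the data had been seen.

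**Figure D4:**
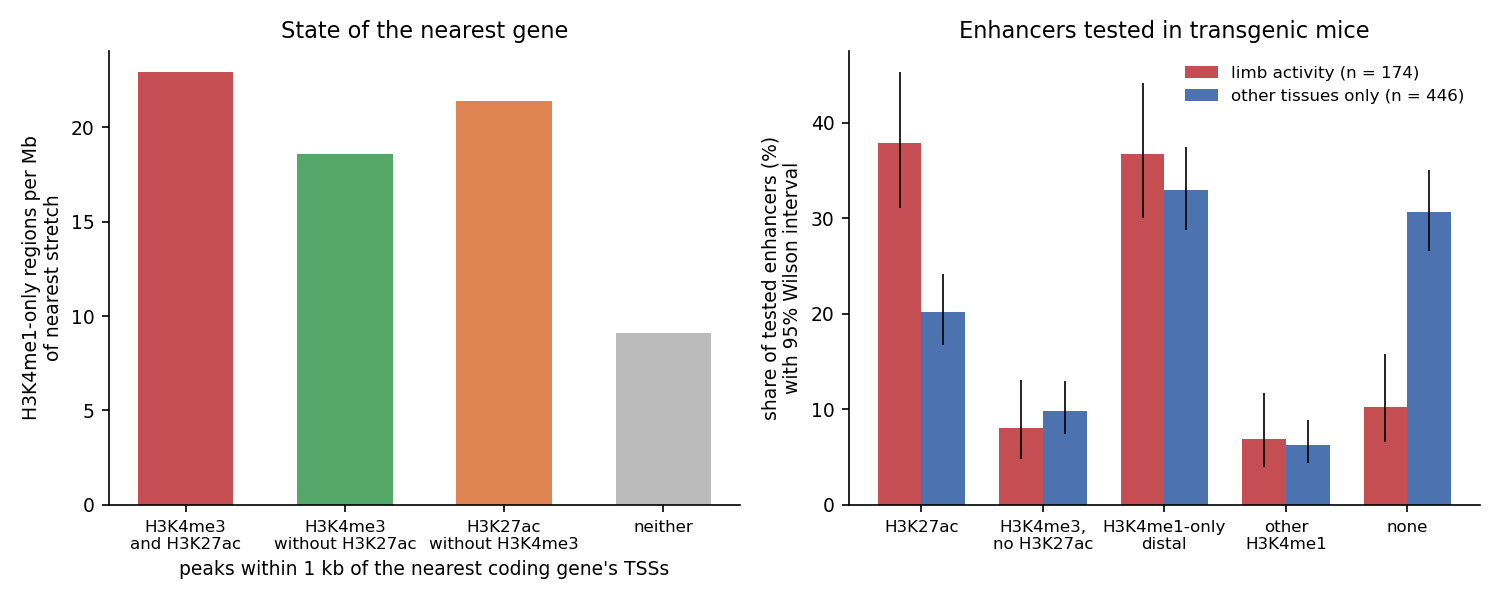
Left, H3K4me1-only regions per Mb of the genome nearest to genes with both promoter marks, H3K4me3 alone, H3K27ac alone or neither; right, share (%) of tested enhancers with limb activity (n = 174) and with activity elsewhere only (n = 446) by the marks they overlap, with 95% Wilson intervals as bars. Density is 22.9, 18.6, 21.4 and 9.08 per Mb in that order, and the H3K4me1-only shares of 36.8% and 33.0% have overlapping intervals, unlike those for H3K27ac.

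The most conserved 150 bases of 5 of the tested limb enhancers in H3K4me1-only regions, near genes named above, are printed because here sequence, reporter activity and chromatin are known together. Capitals again mark bases identical in pig.
mm1177 near Tbx3: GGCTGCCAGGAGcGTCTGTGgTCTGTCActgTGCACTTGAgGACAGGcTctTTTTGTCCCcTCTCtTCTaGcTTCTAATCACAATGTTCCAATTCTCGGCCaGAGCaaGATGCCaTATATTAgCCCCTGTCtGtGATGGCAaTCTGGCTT
mm1179 near Gli3: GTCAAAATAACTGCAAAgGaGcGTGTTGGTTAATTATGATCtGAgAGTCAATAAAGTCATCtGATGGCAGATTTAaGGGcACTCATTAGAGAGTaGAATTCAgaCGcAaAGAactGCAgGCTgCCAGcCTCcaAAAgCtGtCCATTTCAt
mm634 near Sox9: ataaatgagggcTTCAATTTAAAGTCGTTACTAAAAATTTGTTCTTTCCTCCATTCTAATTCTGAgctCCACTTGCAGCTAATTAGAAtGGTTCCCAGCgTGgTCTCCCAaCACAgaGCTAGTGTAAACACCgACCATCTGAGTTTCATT
mm917 near Fgf10: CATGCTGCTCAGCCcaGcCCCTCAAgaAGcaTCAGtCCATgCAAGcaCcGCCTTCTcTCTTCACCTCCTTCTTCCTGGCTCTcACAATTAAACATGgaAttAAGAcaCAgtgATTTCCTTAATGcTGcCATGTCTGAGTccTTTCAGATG
mm1465 near Meis1: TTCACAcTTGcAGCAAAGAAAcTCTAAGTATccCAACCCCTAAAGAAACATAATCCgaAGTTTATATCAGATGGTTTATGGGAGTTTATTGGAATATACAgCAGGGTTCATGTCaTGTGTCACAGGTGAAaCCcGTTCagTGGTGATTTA

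The mm1177 sequence lay at chr5:119612651-119612800, in an intron of Tbx3os1, 57.8 kb upstream of Tbx3, in a region of 7927 bp, and shared 129 bases with pig. The mm1179 sequence, chr13:15343682-15343831, was intergenic, 120 kb upstream of Gli3, and shared 125 bases. The mm634 sequence, chr11:112412494-112412643, was intergenic, 370 kb upstream of Sox9. The mm917 sequence, chr13:118735953-118736102, lay in an intron of Fgf10, and the mm1465 sequence, chr11:18712745-18712894, was intergenic, 303 kb downstream of Meis1. The pig match carried H3K4me1 alone for 4 of the 5 and no peak for mm917. Other tested limb enhancers in such regions were mm636 near Sox9, mm428 near Msx1, mm448 near Emx2 and mm1689, whose nearest gene was Hand2 at 337 kb.

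Taken in genome order, 1 region in 10 was searched in the pig genome with repeats masked. Of 4436 regions, 2646 (59.6%, 58.2 to 61.1) had a match, with a median length of 264 bases and a median identity of 78.3%. Of 480 distal H3K4me1 peaks with H3K27ac, 274 (57.1%) had one, and the difference of 2.56 points had an interval of -2.02 to 7.26. For 1897 of the 2646 (71.7%) the nearest coding gene in pig had the same symbol as in mouse. At the match, 1057 (39.9%, 38.1 to 41.8) overlapped pig H3K4me1 alone, 88 (3.33%) pig H3K27ac, 9 (0.340%) pig H3K4me3 without H3K27ac and 1492 (56.4%) no pig peak. Pig marks were read over the matched bases only, and distance to a pig TSS was not used. A match with H3K4me1 alone can thus lie in a pig peak that overlaps another mark elsewhere, unlike the mouse regions. Pig H3K4me1 alone covered 15% of pig bases outside repeats and pig H3K27ac 1.89%, although a match of some length overlaps a peak more often than a single base does.

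Mouse peaks with H3K27ac differed from the H3K4me1-only regions in the share with pig H3K27ac and in the share with no pig peak. Their matches overlapped pig H3K27ac in 16.1% (12.2 to 20.9), and the difference was -12.7 points (-17.6 to -8.79). No pig peak was found at 44.9% of their matches (39.1 to 50.8), against 56.4% for the H3K4me1-only regions, and the interval of the difference ran from 5.28 to 17.6 points. Pig H3K4me1 alone was found at 38.3%, with a difference of 1.63 points (-4.54 to 7.49) whose interval includes 0. Restricted to matches with the same nearest gene, the differences were -12.9 points (-18.7 to -8.36) for pig H3K27ac and 1.25 points (-5.97 to 8.11) for pig H3K4me1 alone, and the interval for no pig peak ran from 4.75 to 19.0 points. Stage, sequencing and, for H3K4me1, the number of replicates differed between the species along with the species itself, and these cannot be told apart.

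For 32 genes of the limb lists named by rule, all assigned regions were searched. Of 40 at Sall1, 32 had a pig match, all of them nearest to SALL1, and 22 carried pig H3K4me1 alone and 10 no peak. Of 39 at Meis1, 34 had a match, 20 with H3K4me1 alone and 14 without a peak. Tbx3 had 28 matches among 38, and 4 of these overlapped pig H3K27ac, 18 H3K4me1 alone and 6 no peak. At Sox9, 41 of 49 had a match, with 3 in pig H3K27ac, 22 in H3K4me1 alone and 15 in no peak. At Dkk1, 10 of 11 matches had no pig peak and 1 had H3K4me1 alone, and at Bmp2 19 of 26 had no peak.

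**Figure D5:**
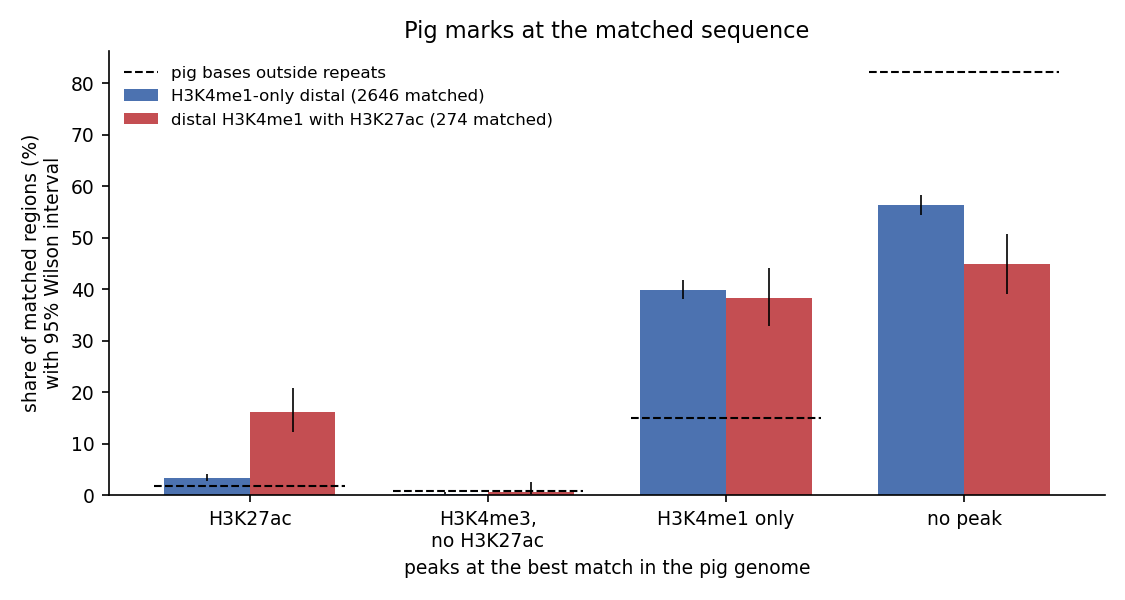
Share (%) of matched mouse regions by the peaks at their best match in the pig genome, for 2646 H3K4me1-only regions and 274 distal H3K4me1 peaks with H3K27ac, with 95% Wilson intervals as bars and the share of pig bases outside repeats as dashed lines. The classes separate at pig H3K27ac (3.33% and 16.1%) and at no pig peak (56.4% and 44.9%), and stand at 39.9% and 38.3% at pig H3K4me1 alone.

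The regions were richer in G and C than the genome. The median GC content was 44.8% (quartiles 42.0 and 47.7), against 41.1% in 78316 genome windows and 46.0% in distal H3K4me1 peaks with H3K27ac. These windows had the regions' median width, 3378 bp, and were a sample at even steps along the chromosomes. CpG dinucleotides numbered 9.94 per kb, against 6.81 in genome windows, and repeats took 16.2% of bases, against 28.1%.

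In the central 300 bases, 15 short motifs were searched on both strands. TAATTA, the core bound by homeodomain factors, was in 9.93% of the regions (9.65 to 10.2), in 8.12% of the peaks with H3K27ac and in 10.6% of all windows of 300 bases of the genome. The difference between the first 2 was 1.80 points (0.951 to 2.60). CTTTGAT, bound by LEF and TCF factors of the WNT pathway, and CAATAAA, bound by posterior HOX proteins, were also more frequent than in peaks with H3K27ac, by 0.798 points (0.135 to 1.40) and 0.796 points (0.0374 to 1.49). In genome windows the same motifs were found at 6.15% and 8.72%, above the 5.39% and 7.06% of the regions. CAGCTG, an E-box of MyoD and Tcf12, was in 16.9% of the regions and 18.9% of the peaks with H3K27ac, a difference of -2.06 points (-3.25 to -0.923), and in 10.5% of genome windows. For the other 11 motifs the interval of the difference included 0. With 15 motifs compared, the intervals were not adjusted for their number. The classes also differ in base composition, and its part in these differences was not tested.

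Of the sequences printed above, those of Meis1, Sox6, Tbx18, Bmpr1b, mm634 and mm1179 hold TAATTA. With both strands searched, those of Tbx18, mm1179 and mm1465 hold CAATAAA. For mm1179 this motif stands in the printed strand, and for Tbx18 and mm1465 in the opposite strand only. The Gdf6 sequence holds AGGTGTGA, the site of T-box factors. A match of letters is a description of the sequence and not a bound site.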

How the data were processed

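The authors deposited 1 list of peak positions per species and mark, with chromosome, start and end and no score, so the depth is unknown and no value per sample was given. Per the design text in the labels, mouse reads of 100 bp were cropped to 50 bp and aligned to GRCm38/mm10, and peaks were broad with an irreproducible discovery rate below 0.01. The tools named, per the submitters' processing notes, were Bowtie2 2.3.5, deepTools 3.5, FastQC 0.11.9, SAMtools 1.9 and Trimmomatic 0.39. What called the peaks was not given in the sources used here. Positions were read in Python 3.11.15 with numpy 2.4.6 and pandas 2.3.3 and placed on RefSeq annotation GRCm38.p6 (79796 TSS positions, 21774 coding genes) and, for pig, Sscrofa11.1. 4 mouse H3K4me1 peaks on unplaced sequences were not used. Overlap meant 1 bp or more. The midpoint set the placement, coding exon before other exon before intron. Pig matches came from blastn 2.17.0 at an E value of 1e-10 or lower, best score first. Intervals were computed with scipy 1.17.1 and plots drawn with matplotlib 3.10.9. The interval and cluster functions were tested on simulated data.

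The regions and the 20 gene lists were chosen with earlier results of these data known. Genes were named by rule: the 10 with the most regions, the 10 with the most per 100 kb of territory, the 5 with the most among those without promoter marks, the 4 leading genes of each list, list genes at 0 where these were 5 or fewer, and those nearest to the 5 largest clusters. Other names (such as Prrx1, Shh and Tbx5) were added after their values were seen, as were the tested enhancers and the limit of printed sequences to bases outside exons. No test between samples was possible with 1 consensus list per mark. A few genes that the rule would name are not reported here.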

Additional observations from a re-analysis of the deposited data

How the results depend on the processing

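The number of regions stayed within 1.5 times the reported 44353 under each selection tried: 42582 and 39087 with TSS distances over 2.5 and 5 kb, 43692 with no H3K27ac or H3K4me3 within 1 kb, 44574 where 10% of a peak had to be overlapped, 46934 with coding TSSs only, and 43881 with the starts of all gene and pseudogene records added, a setting chosen after seeing the data. The intronic share was 52.0% in the wider and 51.0% in the narrower 50% of regions, 44.1% with coding genes only and 50.8% over 5 kb from a TSS. The share in clusters of 5 or more was 0.751% at a joining gap of 5 kb, 35.5% at 25 kb and 1.49% in the wider 50%. Assigned within 100 kb, 42.9% of coding genes had a region. The share nearest to a gene with neither mark was 13.7% with a window of 2.5 kb, 14.7% within 100 kb and 13.6% in the wider 50%. A pig match was found for 49.5% at an E value of 1e-20 and for 73.6% of the wider 50%. Of the 40 tested enhancers with limb activity alone, 45.0% (30.7 to 60.2) lay in an H3K4me1-only region, a setting also chosen after seeing the data. Of the 103 genes named by rule, 58 had counts over 1.5 times lower when only TSSs within 100 kb were allowed, 1 moved as much at 1 Mb, and 81 did with the wider 50% of the regions, where fewer regions enter by construction. No paired analysis was possible because each mark has 1 consensus list and no list per replicate, and for the same reason no replicate could be left out.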

Other observations

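The regions were spread unevenly over the chromosomes. Autosomes held 15.3 (chromosome 7) to 20.7 (chromosome 11) H3K4me1-only regions per Mb, chromosome X held 464 regions, or 2.71 per Mb, and chromosome Y none. On X, 842 H3K4me1 peaks of any kind were called, and 55.1% of them were H3K4me1-only, against 56.6% on chromosome 11 and 69.2% on chromosome 13. Coding genes numbered 5.63 per Mb on X, as on chromosome 18, which held 19.9 regions per Mb. The cause was not tested.

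Tested enhancers of other tissues were also found in these regions. Of 98 elements active in the branchial arches, 42 (42.9%) lay in an H3K4me1-only region. The share was 31.4% of 70 elements of facial mesenchyme, 25% of 32 somite elements, 32.7% of 159 heart elements, 30.5% of 167 forebrain elements and 28.6% of 98 neural tube elements. Many elements are active in more than 1 tissue, so these groups share members.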
